A study of Mus musculus with 6 samples.

Results

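The transporters described here are the probes of the Agilent mouse array whose gene symbol places them in the ATP-binding cassette subfamilies Abca to Abcg, in the organic anion transporting polypeptide family Slco, or in the organic ion transporter family Slc22. The symbol of a probe came from the transcript named in its scanner file, matched to a RefSeq table. This gave 111 of the 55681 non-control probes and 88 of the 20284 gene symbols on the array. ABC genes accounted for 67 probes of 49 genes, Slco for 17 probes of 14 genes and Slc22 for 27 probes of 25 genes. On 1 or more of the 6 arrays, 93 of these probes, for 76 genes, were well above background. The 12 genes that were above background on none of them were Abca13, Abcb5, Slc22a6, Slc22a8, Slc22a16, Slc22a19, Slc22a20, Slc22a22, Slco1a6, Slco5a1, Slco6c1 and Slco6d1.

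ABC proteins spend ATP to pump lipids, bile salts and drug conjugates across membranes, whereas Slco and Slc22 proteins mostly carry organic anions or cations into cells. In the liver these families divide the work: Slco and Slc22 carriers of the blood-facing membrane take substrates up, and ABC pumps of the canalicular membrane pass them into bile. Other members serve the lipid balance of many cells, or sit in mitochondria, peroxisomes and lysosomes.

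Female CD-1 mice, an outbred stock, gave liver, ovary and uterus before maturity and are labelled as 24 days old. Mice were given peanut oil (control) or 50 mg/kg of fluorene-9-bisphenol (BHPF), a substitute for bisphenol A, by gavage on 3 days. The methods place the first dose on PND 21 and a figure legend of the study places it on PND 24. Each of the 6 groups had 1 array made from RNA pooled over 3 mice, so the spread between animals was not measured and no test of BHPF within a tissue was possible. The slide was the same for all, but control arrays came first on it and BHPF arrays after them, so slide position cannot be told apart from treatment. The level of a probe is its log2 intensity minus the 75th percentile of its array, so a level of 0 is as bright as that percentile. Between 61.3% and 74.5% of the probes on an array were well above background, the lowest such level lay between −6.33 and −4.91 by array, and no probe was saturated. Spots of 1 probe had a mean SD of 0.096 on the log2 scale, which gives a log2 ratio of 2 arrays an SD of 0.14 from spot noise alone. Levels of different probes are not set against each other.

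The labels were set beside marker genes. Of 16 measured hepatocyte markers 15 were higher in liver than in ovary and 16 than in uterus by the fit described next. Of 11 ovary markers 10 were higher in ovary than in liver and 10 than in uterus, and all 10 uterus and smooth muscle markers were higher in uterus than in both. Being above background did not part the tissues, since 16 of 16 hepatocyte markers passed it on the BHPF uterus array too. The BHPF uterus array stood apart in its hepatocyte markers. Their summed level (log2) was 1.70 for the control and 5.61 for the BHPF pool of uterus, against 9.10 and 9.03 in liver and 3.23 and 3.46 in ovary. Tissue patterns that involve the uterus are therefore given with and without that array, and BHPF counts with and without the liver-bright probes. A named gene whose call was lost without the array carries its difference (log2) from that fit. Leaving the array out leaves 1 uterus array and fewer residual degrees of freedom, so a lost call need not mean a smaller difference.

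The first question was how the transporters were spread over the 3 tissues. Levels were compared with limma on all 6 arrays, with a term for treatment, and p values were adjusted over 43892 probes with the Benjamini-Hochberg method. Each tissue then had 2 arrays and the fit had 2 residual degrees of freedom. The error is the part of the difference between control and BHPF pools that the tissues do not share, moderated over all probes. At an adjusted p under 0.05, 55 of the 93 transporter probes (59.1%) were higher in liver than in ovary, against 29.9% of all probes tested, and 20 were higher in ovary, against 29.5%. The median liver minus ovary difference was 0.84 on the log2 scale for the transporters and 0.061 for all probes. Between liver and uterus, 47 transporter probes (50.5%) were higher in liver, against 25% of all probes. Higher in uterus were 26 (28%), near the 27.6% of all. Ovary and uterus differed less, with 7 transporter probes (7.53%) higher in ovary, against 11.1% of all. Higher in uterus were 13 (14%), near the 12.4% of all. Without the BHPF uterus array, which leaves 1 uterus array, fewer transporter probes were called in the contrasts with uterus. Fewer of all probes held the tissue patterns below in that fit too.

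A total of 46 transporter probes (49.5%), for 40 genes, were higher in liver than in both other tissues, a pattern held by 20.5% of all probes. By the brightest probe of each gene these were 27 of 47 ABC genes (57.4%), 5 of 10 Slco genes (50.0%) and 8 of 19 Slc22 genes (42.1%). The reverse, lower in liver than in both other tissues, was found for 18 probes of 12 genes (19.4%), near the 20.6% of all probes. Higher in ovary than in both other tissues were 3 probes, of Slco1a5 and Slco3a1 (3.23%, against 7.93% of all probes). Higher in uterus were 5 (5.38%, against 7.65%), of Abcc9, Slc22a2, Slc22a3, Slc22a4 and Slco4c1. Without the BHPF uterus array, 34 of the 46 probes (30 genes) were still higher in liver than in both other tissues, against 10.3% of all probes, and 14 of the 18 were lower, against 12.3%. None of the 3 probes higher in ovary remained (1.29% of all), and of the 5 higher in uterus those of Slc22a3 and Slco4c1 did (1.42% of all).

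**Figure D1:**
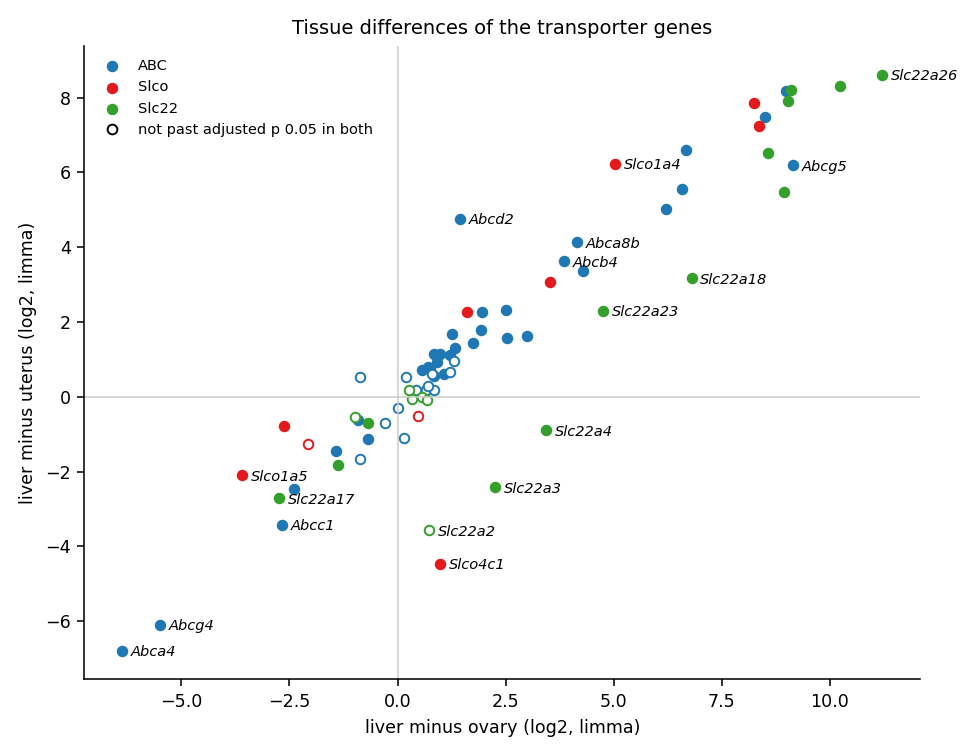
Each point is the brightest probe of 1 transporter gene, with the fitted liver minus ovary difference on the horizontal axis and the liver minus uterus difference on the vertical axis (both log2, limma on 6 arrays). Filled points passed an adjusted p of 0.05 in both contrasts. Most genes lie near the diagonal with liver highest, up to Slc22a26, while Slc22a2, Slc22a3, Slc22a4 and Slco4c1 lie in the lower right, where uterus is highest.

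The 5′ flanks of Slco1b2 and Abcb11 are shown because these genes had the largest uterine ratios reported below and were among the genes bright in liver. Slco1b2 encodes the main hepatic uptake carrier of its subfamily, and Abcb11 the bile salt export pump. The sequences are the 250 bases before the RefSeq start site on GRCm38.p6, 5′ to 3′ on the strand of the gene. Slco1b2 lies on the plus strand of chr6:141629268-141629517 and Abcb11 on the minus strand of chr2:69342617-69342866. Capitals mark AGGTCA, the hexamer bound by many nuclear receptors, and GTTAAT, the core of the element bound by hepatocyte nuclear factor 1, on either strand (TGACCT and ATTAAC read from the other strand).
Slco1b2: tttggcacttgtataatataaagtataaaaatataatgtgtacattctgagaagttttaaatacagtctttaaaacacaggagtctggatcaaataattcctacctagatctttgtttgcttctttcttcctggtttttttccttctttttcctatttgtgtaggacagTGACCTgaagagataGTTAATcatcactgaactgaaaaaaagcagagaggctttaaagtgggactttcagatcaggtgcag
Abcb11: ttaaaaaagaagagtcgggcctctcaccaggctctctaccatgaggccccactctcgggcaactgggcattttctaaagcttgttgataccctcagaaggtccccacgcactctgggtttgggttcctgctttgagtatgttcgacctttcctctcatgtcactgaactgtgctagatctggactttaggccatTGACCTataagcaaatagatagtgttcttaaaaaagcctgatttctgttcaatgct
In both flanks the nuclear receptor hexamer was read on the other strand, at positions −81 to −76 in Slco1b2 and −56 to −51 in Abcb11, and Slco1b2 also held GTTAAT at −66 to −61. Flanks were given for 70 of the member genes, with 82 start sites. AGGTCA stood in 12 of these 82 (14.6%), against 14% of 32851 flanks of all genes, and in 8 of 36 flanks (22.2%) of the genes higher in liver than in both other tissues. GTTAAT stood in 4 of the 82 (4.88%) and in 2 of those 36 (5.56%), against 6.43% of all. These matches describe the letters only.

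All 6 pumps listed here as canalicular, a list that leaves out the P-glycoproteins below, were higher in liver than in ovary and uterus. Here and below, the values of a tissue are given with the control pool first and the BHPF pool second. Abcb11 had levels of 3.95 and 4.19 in liver, −4.75 and −5.06 in ovary and −5.96 and −2.27 in uterus, where the first value was not well above background. Liver thus lay 8.98 above ovary (log2, SE 1.10, adjusted p = 0.00537 by limma), and the uterus pools disagreed by more than spot noise. Abcg5, which with Abcg8 forms the sterol exporter of the canaliculus, had levels of 3.62 and 3.59 in liver, −5.56 and −5.53 in ovary and −3.10 and −2.06 in uterus. Its liver minus ovary difference was 9.15 (log2, SE 0.33, adjusted p = 0.000692). Abcg8 was well above background in liver only, at −1.46 and −1.08, at least 27.2-fold higher than in ovary and at least 17.9-fold higher than in uterus. These bounds set the mean of the liver arrays against the lowest level well above background on the arrays of the dimmer tissue, or against the probe's own level there where higher. Abcc2, the canalicular pump of glucuronide conjugates, was likewise measured in liver only (1.66 and 2.14), at least 245-fold above ovary and at least 162-fold above uterus. Abcb4, a phospholipid floppase, was measured in all tissues and lay 3.86 above ovary and 3.63 above uterus. Abcg2, a broad drug and urate efflux pump, had the smallest differences of the group. It lay 1.06 above ovary (adjusted p = 0.00607) and 0.62 above uterus (adjusted p = 0.0252, a call lost at 0.53 without the BHPF uterus array). Quantile normalization took the former to 0.42 (adjusted p = 0.0526) and turned the latter to −0.042.

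The P-glycoprotein genes Abcb1a and Abcb1b, drug efflux pumps of many barriers, had the opposite order. Abcb1a had levels of 0.43 and 0.53 in liver, 0.74 and 0.82 in ovary and 1.09 and 1.29 in uterus, and Abcb1b −1.75 and −1.72, −1.09 and −1.01, and −0.76 and −0.46. Both were lower in liver than in uterus, by −0.71 (adjusted p = 0.0150) and −1.12 (adjusted p = 0.00639). These calls were lost without the BHPF uterus array (adjusted p = 0.0996 and 0.0540). The genes are close paralogs whose probes may share signal.

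The pumps of the blood-facing membrane were split. Abcc6, which supports ATP release by hepatocytes, lay at 2.64 and 2.83 in liver, −3.77 and −4.12 in ovary and −4.29 and −3.44 in uterus. It was 6.68 above ovary (SE 0.33, adjusted p = 0.000873), and its second probe was also higher in liver. Abcc3, which returns bile salts and glucuronides to blood, was 2.98 above ovary (adjusted p = 0.00075) and 1.62 above uterus (adjusted p = 0.00208). It was higher in uterus than in ovary by 1.36 (the fitted ovary minus uterus difference was −1.36, adjusted p = 0.00713). That last call was lost without the BHPF uterus array, where the difference was −1.39. Abcc1 and Abcc5, pumps of conjugates and cyclic nucleotides in many cells, were lower in liver. Abcc1 had levels of −2.05 and −2.83 in liver against 0.21 and 0.24 in ovary and 0.96 and 1.01 in uterus, and all 4 probes of Abcc5 were lower on each liver array than on every ovary and uterus array. Abcc4 was lower in liver than in uterus (−1.66, adjusted p = 0.0128), a call lost without the BHPF uterus array, where the difference was −1.80.

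**Figure D2:**
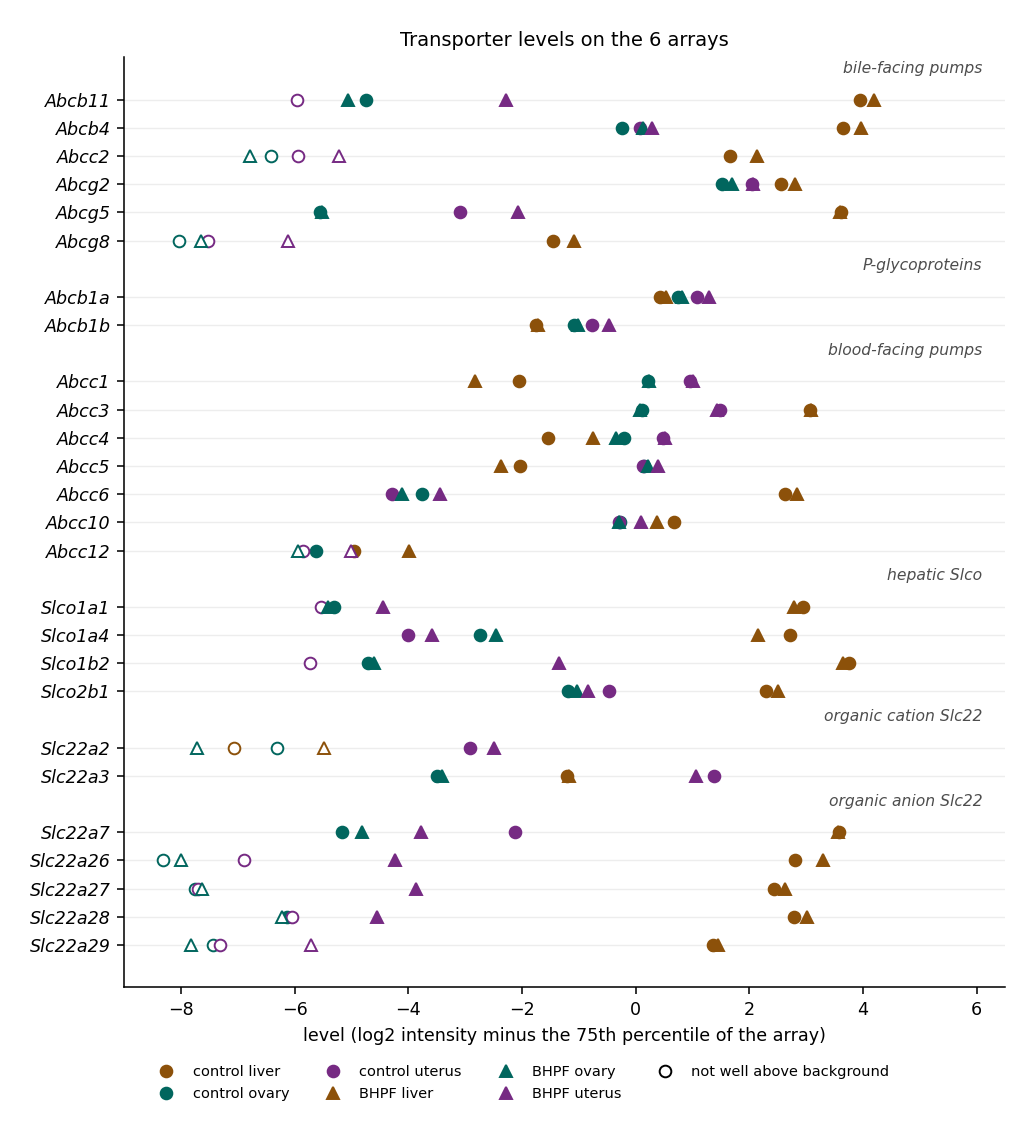
Levels (log2 intensity minus the 75th percentile of the array) of transporters in 6 groups by role on each array. Circles are control and triangles BHPF arrays, colours are tissues, and open symbols were not well above background, so values are read within a row. Liver symbols sit at the right for the bile-facing pumps, hepatic Slco and organic anion Slc22 genes and at the left for the P-glycoproteins, Abcc1 and Abcc5. The triangle for BHPF uterus stands to the right of the control uterus circle for Slco1b2 and Abcb11 and to the left for Slc22a7.

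Of the lipid exporters, Abca3, known for surfactant lipid packing in lung, was higher in liver (3.65 and 3.86) than in ovary (1.36 and 1.09) and uterus (2.24 and 2.11). Its call against uterus was lost without the BHPF uterus array, where the difference was 1.53, against 1.58 with it. Abca4, the retinoid transporter of photoreceptors, and Abcg4, a sterol exporter of brain, were not well above background on either liver array. Abca4 had levels of −0.95 and −0.97 in ovary and −0.77 and −0.31 in uterus, at least 19.7-fold and at least 26.5-fold above liver. Abcg4 was at least 20.5-fold higher in ovary and at least 31.4-fold higher in uterus than in liver, and a second probe of each gene was also above background in ovary and uterus only. The clustered Abca5-like genes, lipid transporters of less certain function, split within their cluster. Abca6 (2.36 and 2.19 in liver, −3.94 and −3.92 in ovary, −3.08 and −2.40 in uterus), Abca8a and Abca8b were higher in liver, with liver minus ovary differences of 6.20, 2.50 and 4.15. Abca9 was lower in liver by −1.43 against ovary (adjusted p = 0.00345).

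Among transporters of organelles, all 5 Abcb genes of mitochondria and lysosomes were higher in liver, by 0.91 to 1.94 against ovary and 0.93 to 2.27 against uterus. Without the BHPF uterus array the calls against uterus were lost for Abcb9 and Abcb10, at differences of 1.08 and 0.95. That of Abcb9 against ovary was lost too, at an unchanged difference of 0.91. Abcb6, a porphyrin transporter, had the largest differences of the 5 Abcb genes, with levels of 3.03 and 3.11 in liver, 1.27 and 0.99 in ovary and 0.87 and 0.74 in uterus. Abcd3, a peroxisomal carrier of bile acid precursors, was 1.92 above ovary (adjusted p = 0.00179). Abcd2, its very long chain fatty acid relative, was present in liver (−1.11 and −1.03) and ovary (−2.37 and −2.68) and not well above background in uterus, where liver exceeded it at least 20.6-fold and ovary at least 7.53-fold. The ABCE and ABCF proteins act in translation and have no membrane domain. By their brightest probes these genes differed by at most 0.74 between liver and ovary and 0.80 between liver and uterus. A dimmer second probe of Abcf1 was 1.17 higher in liver than in uterus, or 0.89 without the BHPF uterus array. Abcc9, the sulphonylurea receptor of vascular and smooth muscle potassium channels, was higher in uterus (1.14 and 0.65) than in liver (−0.20 and −0.25) and ovary (−0.14 and −0.60). Neither call held without the BHPF uterus array, where the differences were −1.23 for liver minus uterus and −1.38 for ovary minus uterus. For Abcc8, its counterpart in insulin-secreting cells, the probes disagreed. The brighter one was 1.30 above uterus in liver (adjusted p = 0.00501) and the dimmer one, not well above background on either liver array, was at least 1.97-fold higher in uterus, so no tissue order is given for that gene.

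The 4 hepatic Slco carriers, which take up bile acids, steroid conjugates and many drugs, were all higher in liver than in the other tissues. Slco1b2 had levels of 3.75 and 3.65 in liver, −4.72 and −4.60 in ovary and −5.73 and −1.35 in uterus. Slco1a1 had levels of 2.95 and 2.79 in liver, −5.31 and −5.42 in ovary and −5.53 and −4.46 in uterus. For both, the control uterus array was not well above background and the ovary arrays were. Liver exceeded ovary by 8.36 for Slco1b2 (SE 1.28, adjusted p = 0.00919) and by 8.23 for Slco1a1 (SE 0.37, adjusted p = 0.000793). Slco1a4 was 5.03 above ovary and 6.24 above uterus, and Slco2b1, which is also found in other tissues, 3.52 and 3.06. Elsewhere in the family, Slco1a5 was dim in liver and higher in ovary (−2.54 and −2.54) than in uterus (−4.12 and −3.96). Its call for ovary against uterus was lost without the BHPF uterus array, where the difference was 1.58. Slco4c1, a carrier known from kidney, was well above background in uterus only (−2.63 and −2.13), at least 12.6-fold above ovary and at least 7.39-fold above liver. Slco1a1, Slco1a4 and Slco1a5 are neighbouring paralogs, and their probes may share signal.

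The organic cation carriers Slc22a2 and Slc22a3 were highest in uterus. Slc22a3, a carrier of monoamines, was highest in uterus, at 1.38 and 1.07, against −1.21 and −1.17 in liver and −3.49 and −3.40 in ovary. All 3 tissues differed for it, by 2.26 for liver minus ovary, −2.42 for liver minus uterus and −4.67 for ovary minus uterus (adjusted p = 0.00172, 0.00161 and 0.00182). Slc22a2, the renal cation carrier, was well above background in uterus only (−2.92 and −2.50), at least 9.98-fold above ovary (adjusted p = 0.0292). Neither that call nor the one against liver (adjusted p = 0.0233) held without the BHPF uterus array. The differences were then −4.14 for ovary minus uterus and −3.40 for liver minus uterus. Among the carnitine carriers, Slc22a4 was 3.43 higher in liver than in ovary and 0.89 lower in liver than in uterus (−0.89, adjusted p = 0.0120). The latter call was lost without the BHPF uterus array, where the difference was −0.97. Slc22a5, the main carnitine importer, and Slc22a21 were lower in liver than in both ovary and uterus. Of these, the Slc22a5 call against uterus was lost without that array, where the difference was −0.72, against −0.71 with it.

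Of 12 organic anion Slc22 genes with a probe, 7 were above background and 5 were higher in liver. Slc22a26, Slc22a27, Slc22a28 and Slc22a29, rodent carriers of 1 gene cluster on chromosome 19, had liver levels between 1.36 and 3.29 and were not well above background in ovary, except Slc22a28 on the control array at −6.14. Slc22a26 was at least 541-fold, Slc22a27 at least 378-fold and Slc22a29 at least 173-fold higher in liver than in ovary. They are close paralogs, so which gene a probe reports is uncertain. Slc22a7, the hepatic carrier of cyclic nucleotides and prostaglandins, lay at 3.57 and 3.57 in liver, −5.17 and −4.81 in ovary and −2.13 and −3.77 in uterus. Of the less well known genes, Slc22a18 (3.89 and 3.90 in liver, −2.75 and −3.06 in ovary, 0.69 and 0.76 in uterus) and Slc22a23 (2.63 and 2.67, −2.00 and −2.20, 0.36 and 0.34) formed a gradient in which uterus stood between liver and ovary, with all contrasts past the threshold. The call of Slc22a23 between ovary and uterus was lost without the BHPF uterus array, where the difference was −2.41, against −2.44 with it. Slc22a17, a lipocalin receptor, was lower in liver by −2.74 against ovary and −2.71 against uterus.

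The second question was what BHPF changed in each tissue. A probe counted as evaluated if either array of the tissue had it well above background, and as called from 2-fold upwards. If only 1 array had it well above background, its ratio is a bound, built like those between tissues.

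In the liver, 79 transporter probes were evaluated and 68 of them differed by less than 0.5 on the log2 scale. Higher with BHPF were 2 probes (2.53%), against 6.02% of all probes, and lower was 1 (1.27%), against 1.07%. The median log2 ratio was 0.041 for the transporters and 0.062 for all probes. None of the canalicular pumps or hepatic Slco carriers reached 2-fold. Bile salt and sterol pumps differed by −0.031 for Abcg5 to 0.48 for Abcc2, and uptake carriers by −0.57 for Slco1a4 to 0.20 for Slco2b1. The called probes were dim. Slco4a1, a thyroid hormone and organic anion carrier, lay at −4.44 in the control pool and at −3.27 in the BHPF pool, a log2 ratio of 1.17. Abca14 went from −5.47, not well above background, to −4.22 (at least 2.38-fold higher), and Abcg3, an Abcg2 relative of rodents, from −3.19 to −4.55, where it was not well above background (at least 2.57-fold lower). Background correction with normexp left none of these 3 past 2-fold. Among the probes on both arrays, Abcc12 (0.97), Abcc4 (0.80) and Abcc1 (−0.78) came nearest without reaching it. In the liver 7 of 9 neutrophil markers were at least 2-fold lower with BHPF, their summed level going from 5.75 to 4.56 (log2), and their part in these ratios was not tested.

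In the ovary, none of 84 transporter probes differed by 2-fold in either direction, against 0.681% higher and 0.593% lower among all probes. The ratios ran from −0.46 to 0.77 with a median of 0.021 (0.0036 for all probes), and 82 of the 84 were within 0.5 on the log2 scale. Abca15 was highest by its bound (0.77), and Abcc9 lowest (−0.46). The 4 evaluated pumps of the canalicular list ran from −0.31 for Abcb11 to 0.36 for Abcb4. Neutrophil markers were lower here too, 5 of 7 by at least 2-fold, with a summed level of 3.79 and 3.51. Of 6 evaluated adipocyte markers 3 were at least 2-fold higher, and of 6 macrophage and Kupffer cell markers 2 were at least 2-fold lower. In neither list did a marker pass 2-fold the other way. The part of these cell types in the ovary ratios was not tested.

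In the uterus, 7 of 80 transporter probes (8.75%) were at least 2-fold higher with BHPF, against 1.88% of all probes. Lower was 1 (1.25%), against 0.773%. Of the 7, 6 were bounds, evaluated only because the BHPF array had them well above background. Among the 71 transporter probes well above background on both uterus arrays, 1 was higher. The median ratio was 0.079 for the transporters and 0.0098 for all probes. The probes that were higher all belong to genes bright in liver. Slco1b2 went from −5.73 to −1.35 (at least 20.8-fold) and Abcb11 from −5.96 to −2.27 (at least 11.5-fold), in each case from below background. Slc22a27 went from −7.70 to −3.86 (at least 3.84-fold), Slc22a26 from −6.90 to −4.24 (at least 2.96-fold), Slc22a28 from −6.05 to −4.55 (at least 2.38-fold) and Slco1a1 from −5.53 to −4.46 (at least 2.11-fold). Abcg5 was above background on both arrays, at −3.10 and −2.06, a ratio of 1.04. The lower probe was that of Slc22a7, which was above background in both pools at −2.13 and −3.77, a ratio of −1.64. In liver its pools were equal to 2 decimals (3.57 and 3.57).

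**Figure D3:**
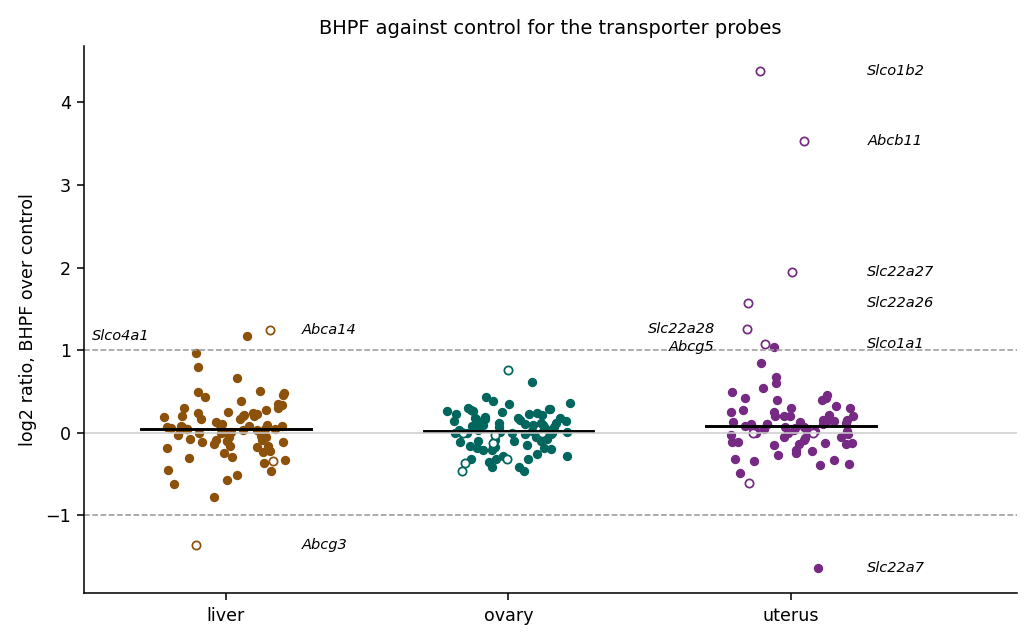
Log2 ratio of BHPF over control for every evaluated transporter probe in liver, ovary and uterus, with the median as a black line and 2-fold as dashed lines. Open symbols are bounds, in which the probe was well above background on 1 of the 2 arrays. Probes past 2-fold are named: 3 in liver, none in ovary and 8 in uterus, led by Slco1b2 at 4.38 and Abcb11 at 3.53.

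These ratios were set beside brightness in liver. Of the 111 transporter probes, 20 exceeded their own control ovary value by 16-fold or more on the control liver array, and 16 of them were evaluated in the uterus. Among these 16, 7 were higher and 1 was lower, with a median of 0.76. Of these 7, 6 were evaluated through the BHPF uterus array alone. Among the other 64 probes none was called in either direction, with a median of 0.037 and a range from −0.60 to 0.60. Of all probes bright in liver by the same rule 36.2% were higher in the BHPF uterus, against 1.09% of the rest. All 16 hepatocyte markers were at least 2-fold higher there, with a median of 3.86 and a range from 1.80 for Tat to 5.49 for Apoa1, while the 10 uterus and smooth muscle markers ran from −0.27 to 0.10. In linear terms the excess of the BHPF over the control uterus array was a median of 6.24% of the control liver intensity for 15 hepatocyte markers (0.41% to 15.6%). For the 16 liver-bright transporter probes above background on the BHPF uterus array it was a median of 0.65%, from −1.30% for Slc22a7 to 2.78% for Slco1b2. The part of hepatocyte RNA in the ratios of single transporters was not tested. Adipocyte markers moved the other way, with 3 of 5 at least 2-fold lower, and 4 of 8 neutrophil markers were lower. Of 6 macrophage and Kupffer cell markers 2 were at least 2-fold higher, Clec4f (1.21) and Vsig4 (1.04). None was 2-fold lower, but 3 of the 6 had ratios below 0, down to −0.38 for Marco.

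**Figure D4:**
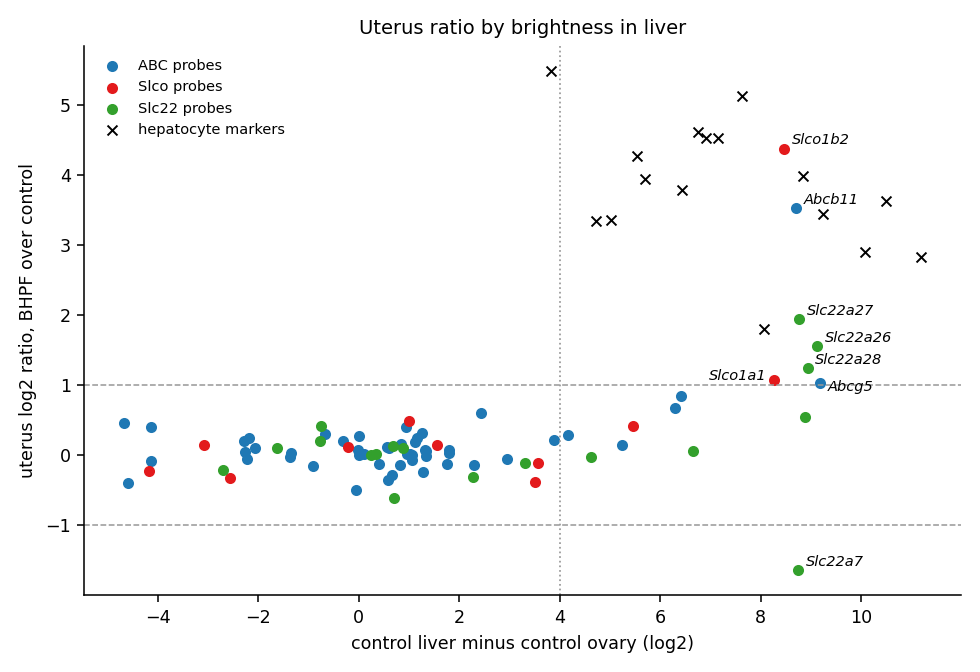
Uterus log2 ratio of BHPF over control (vertical) against the control liver minus control ovary difference (horizontal, log2), for transporter probes by family and for hepatocyte markers (crosses); probes below background on 1 array of a pair are at their bound. The dotted line marks 16-fold and the dashed lines 2-fold. All 8 transporter probes past 2-fold lie to the right of the dotted line, where the hepatocyte markers also lie but for 1 just left of it.

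The direction in the uterus rests on which array is which. The authors' table of log2 values carries the uterus arrays under each other's heading, as 99.1% of its values there matched the scanner files that way within 0.001. Here each scanner file kept the condition of its own sample label. With the table's headings every uterine sign above turns, to 1 transporter probe higher and 7 lower.

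Genes of the same routes outside the families were compared in the same way. Of 5 evaluated hepatobiliary transporters and conjugating carriers, 2 were at least 2-fold higher in the BHPF uterus, where 1.88% of all probes were: Slc27a5, the bile acid CoA ligase of hepatocytes, at −3.59 and −0.026, and Slc2a2, the hepatic glucose carrier, from below background at −7.67 to −3.53. Of 11 evaluated regulators of transporter genes 1 was higher, Hnf4a, from below background at −7.62 to −2.90. Its probe is also one of the hepatocyte markers above. The other regulators were within 2-fold, among them Nr1i3 (0.73), Ppara (0.54), the bile acid receptor Nr1h4 (0.40), the aryl hydrocarbon receptor Ahr (0.24) and the oxidative stress factor Nfe2l2 (−0.32). Of the 11 ratios 9 were above 0 and 2 below, with a median of 0.38. No gene of these lists reached 2-fold in liver or ovary. Tap1, Tap2 and Cftr, ABC genes with other symbols, reached 2-fold in no tissue, and Cftr in the uterus came nearest at −0.91.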

How the data were processed

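The 6 one-colour arrays were hybridized with 1 RNA pool of 3 mice each. The authors extracted scans with Agilent Feature Extraction (version 9.1 in the submitters' processing notes, another in the file headers) and deposited the intensity of each spot after background subtraction, without normalization across arrays. They also deposited log2 values from GeneSpring after a percentile shift, which served as an alternative. Outlier spots were dropped, the rest averaged by probe as log2 intensities and shifted by the array's 75th percentile. Gene symbols came from transcript accessions in a RefSeq table of GRCm38.p6, which named 26762 probes. A gene with several probes is given by its brightest one. Tissue contrasts used limma 3.58.1 in R 4.3.3 with tissue and treatment terms, testing both directions, on probes well above background on at least 1 array. BHPF ratios, from 1 array a group, carry no p value. The number of arrays limits the precision. Calculations were tested on simulated data. Alternatives covered background correction (normexp, offset 50, on median spot intensity), scaling, filters, bounds, the threshold, the probe of a gene and the authors' table. Named genes are all measured members of the canalicular, P-glycoprotein, blood-facing, hepatic Slco and organic cation lists, members past 2-fold (at most 10 each way in a tissue), and at most 4 of each other role list by range of level. Values of 2 member genes are not reported here. Slco3a1, Abca15 and genes named because a count held few were added after their values were seen. Members and lists were chosen with earlier results of these data known.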

Additional observations from a re-analysis of the deposited data

Results flagged for a closer look

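Abcb11 and Slc22a7 each had ratios of opposite sign in the uterus and the ovary. Abcb11 had a log2 ratio of BHPF over control of 3.53 in the uterus, a bound, and −0.31 in the ovary. Slc22a7 had a ratio of −1.64 in the uterus and 0.35 in the ovary. With the uterus columns of the authors' table as headed, the uterus ratios are −3.69 for Abcb11, here without a bound, and 1.64 for Slc22a7, with the same sign as in the ovary. Over the alternatives the ovary ratio of Abcb11 ran from −0.33 to 0.060. Each value comes from 1 array a group, and the difference between the tissues was not tested.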

How the results depend on the processing

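The liver counts of 2 transporter probes higher and 1 lower with BHPF were 0 and 0 with normexp or at 4-fold, 0 and 2 with the 50th percentile (median −0.27), 1 and 0 for probes above background on both arrays, and 10 and 2 with no filter on dim probes, and quantile normalization left 0 higher. The 50th percentile moved the median liver ratio of all probes from 0.062 to −0.22. In the ovary 1 probe was lower with no filter. In the uterus the counts of 7 and 1 became 1 higher for the 71 probes above background on both arrays, and 2 lower with no filter. The counts were 2 and 0 at 4-fold, and 0 and 0 without liver-bright probes. With the columns of the authors' table as headed, an alternative chosen after seeing the data, they were 1 and 7 (median −0.091), and the ratios were −4.38 for Slco1b2, −3.69 for Abcb11, −3.84 for Slc22a27, −2.66 for Slc22a26, −1.50 for Slc22a28, −1.07 for Slco1a1, −1.03 for Abcg5 and 1.64 for Slc22a7. These ratios carry no bound, so their sizes are not to be set against the bounds given above for the same probes. Probes higher in uterus than in ovary were 21 with normexp or no filter. Fewer probes were called in the contrasts with uterus without the BHPF uterus array, which leaves 1 uterus array. Probes higher in ovary than in liver were 13, and higher in uterus than in liver 17, with the authors' table or with probes above background on all 6 arrays, and the latter count was 16 without the BHPF uterus array. The liver minus uterus difference of Abcg2 was −0.042 after quantile normalization. The cause was not tested, except that filters and left-out arrays change the probes or samples tested. Of the other values, 1314 kept their direction and call, 207 moved and 19 lost their call. No paired analysis was possible because the labels give no replicate numbers and each group has 1 array, though the treatment term already sets the tissues against each other within control and within BHPF. Dim probes, near the lowest level well above background, limit the liver and uterus counts.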
